A study of Mus musculus with 4 samples.

Results

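Cathepsins, legumain and cystatin C are the genes described here, in skin of bleomycin (BLM)-treated GSDMD KO and WT mice. The 10 genes were taken by their symbols from the 24441 genes of the deposited table, in a list chosen with earlier results of these data known. They are the cysteine cathepsin genes Ctsb, Ctsc, Ctsh, Ctsk, Ctsl, Ctss and Ctsz, the aspartic cathepsin gene Ctsd, the legumain gene Lgmn and the cystatin C gene Cst3. RNA-seq was performed on 2 skin libraries of WT mice and 2 of GSDMD KO mice (genotype GSDMD-/-), all from female C57BL/6 animals with an age of 8 weeks in the labels. The KO line was a CRISPR-Cas9 germline knockout on the same background, so the edit was not limited to macrophages or any other cell type. Mice of both genotypes had received BLM, a cytotoxic antibiotic that causes local fibrosis, under the skin on alternate days over 28 days, and libraries from saline-injected skin were not analysed here.

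Cathepsins are proteases that work mainly in the acidic lumen of lysosomes, where they degrade proteins taken up by the cell or delivered from within it. Most are papain-like cysteine proteases made as inactive precursors, and legumain, which cuts after asparagine, processes several of them. Cystatin C is a secreted inhibitor that binds papain-like cathepsins tightly and blocks legumain through a separate surface. Macrophages and other phagocytes are rich in these enzymes, while fibroblasts and keratinocytes also make several of them, and some are secreted and take part in the turnover of collagen and elastin.

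Members of the group differ in where they are made, and the sequences before their transcription starts differ too. The table of RefSeq promoters (build GRCm38.p6, 250 bases before to 50 bases after the start) held 8 of the 10 genes with 9 promoters, and Ctsb and Ctsh had no entry. Those of Ctss, Ctsk and Ctsd are shown because Ctss had the lowest KO level relative to WT, Ctsk is its neighbour with another pattern, and Ctsd was abundant with a small difference. Capitals mark matches, on either strand, to 3 of the 5 motifs searched: the interferon-stimulated response element, searched as 2 copies of GAAA set apart by any 2 bases, the site GAGGAAGT of the myeloid factor PU.1, and CACGTGAC, the core of the element bound by the lysosomal regulator TFEB, which contains the E-box CACGTG.
Ctss, chr3:95526536-95526835, plus strand: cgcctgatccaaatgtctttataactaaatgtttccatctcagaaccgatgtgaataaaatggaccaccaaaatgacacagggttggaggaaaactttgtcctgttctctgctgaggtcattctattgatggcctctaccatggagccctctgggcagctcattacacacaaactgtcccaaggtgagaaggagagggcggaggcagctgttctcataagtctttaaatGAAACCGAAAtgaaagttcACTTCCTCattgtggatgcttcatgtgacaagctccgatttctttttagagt
Ctsk, chr3:95498960-95499259, plus strand: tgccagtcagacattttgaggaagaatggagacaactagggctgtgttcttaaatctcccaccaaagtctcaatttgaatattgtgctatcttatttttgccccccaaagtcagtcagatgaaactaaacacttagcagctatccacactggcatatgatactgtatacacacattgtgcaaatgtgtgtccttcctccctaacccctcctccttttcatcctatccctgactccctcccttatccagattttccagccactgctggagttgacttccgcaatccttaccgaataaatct
Ctsd, chr7:142387778-142388077, minus strand: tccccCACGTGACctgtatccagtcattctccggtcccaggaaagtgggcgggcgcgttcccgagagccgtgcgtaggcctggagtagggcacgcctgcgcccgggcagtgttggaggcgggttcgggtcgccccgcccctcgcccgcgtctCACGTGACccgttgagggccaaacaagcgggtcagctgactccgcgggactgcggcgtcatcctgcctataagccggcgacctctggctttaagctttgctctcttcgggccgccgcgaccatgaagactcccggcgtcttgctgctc
The Ctss promoter held 1 interferon-stimulated response element and 1 PU.1 site close to its start, motifs found in 3.44% and 3.20% of the 32851 promoters in the table. The Ctsd promoter held CACGTGAC at 2 places, a motif found in 2.25% of promoters. The Ctsk promoter held none of the 5 motifs, the other 2 being the E-box alone, found in 7.15% of promoters, and the AP-1 site TGANTCA, found in 7.81%. Among promoters not printed, Ctsc held 1 PU.1 site, Ctsl 1 E-box and 1 of the 2 Lgmn promoters 1 CACGTGAC, and those of Cst3 and Ctsz held none. These matches describe letters only, and binding was not measured.

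Values were FPKM, fragments divided by transcript length and library depth, which can be compared between genes per length. The knocked-out gene Gsdmd had 14 and 18.2 FPKM in WT against 3.53 and 2.26 FPKM in KO libraries, so it was lower but not absent. The libraries summed to 448544 to 462252 FPKM. KO replicate 2 stood apart: the first principal component placed it at 75.4 and the other libraries between -53.9 and 6.2. In KO replicate 2, 4 of 8 Y-linked genes were above 0 (summed 1.78 FPKM) and none of them elsewhere, in mice described as female. The summed macrophage, fibroblast, endothelial and adipocyte markers were lowest in that library, whereas the summed hair follicle markers were at 334 FPKM in KO replicate 1 and at 0.758 to 8.99 FPKM elsewhere. The 5 skeletal muscle markers summed to 19954 and 18908 FPKM in WT against 12235 and 12493 FPKM in KO libraries, and the 9 keratinocyte markers, none at 0, to 5748 and 3974 FPKM in WT against 12139 and 5860 FPKM in KO libraries. Of these 9, the basal and junctional genes Krt5, Krt14, Trp63 and Dsg3 were higher in both KO libraries than in both WT libraries (35.3% of all tested genes), and the other 5 overlapped. The part of these tissues in the results below was not tested. The labels do not say that each library came from a separate animal, so p-values measure the spread between these samples.

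All 10 genes were expressed in every library, and on the log2(FPKM + 1) scale the mean of each was lower in GSDMD KO than in WT mice. On the linear scale the exception was Ctsk, with a KO mean of 20.7 ± 24.9 FPKM beside 15.8 ± 8.18 FPKM for WT (SD, n = 2). Log2 fold changes are differences of mean log2(FPKM + 1), and the added 1 shrinks those of low genes. They ranged from -3.50 for Ctss to -0.32 for Ctsk, with a median of -0.71, beside a median of 0.11 over all 13027 tested genes. Leaving out KO replicate 2 gave a median of -0.33 for the 10, and leaving out KO replicate 1 gave -1.86. All 10 were thus negative, as were 41.4% of all tested genes. In 7 of the 10 genes the KO libraries both lay under the lower WT value, an order seen in 20.5% of all tested genes. The exceptions were Ctsd, Ctsl and Ctsk, and no gene of the group had both KO libraries above both WT libraries (35.3% of all tested genes). With median-ratio factors, which moved the median of all tested genes to 0.01, the 10 stayed negative beside 49.4% of all tested genes, and 8, now with Ctsd, lay lower without overlap beside 26.2%. At the study's threshold, an adjusted p under 0.05 with an absolute log2 fold change above 1, limma called 0 of the 10 genes, and 0 of all tested genes (0% called). The paper used this threshold with DESeq2 on read counts and reported down-regulated genes, so its calls and these rest on unlike methods. With an unadjusted p under 0.05 and a log2 fold change below -1, Ctss, Ctsz and Lgmn passed, 3 of 10 against 4.14% of all tested genes. With Ctsb, 4 of 10 lay below -1 at any p, against 6.59% of all tested genes. With the replicate number as a block, Ctsb also passed the unadjusted limits (4 of 10 against 5.27%). With no filter on low values, Lgmn no longer passed them (2 of 10 against 2.21%). Without KO replicate 2, 0 of the 10 were called, beside 0.33% of all tested genes. Without KO replicate 1, 6 of the 10 were called, beside 15.8% of all tested genes, so calls depended on which KO library was kept. In bulk skin, fewer cells of a type and less RNA per cell cannot be told apart.

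**Figure D1:**
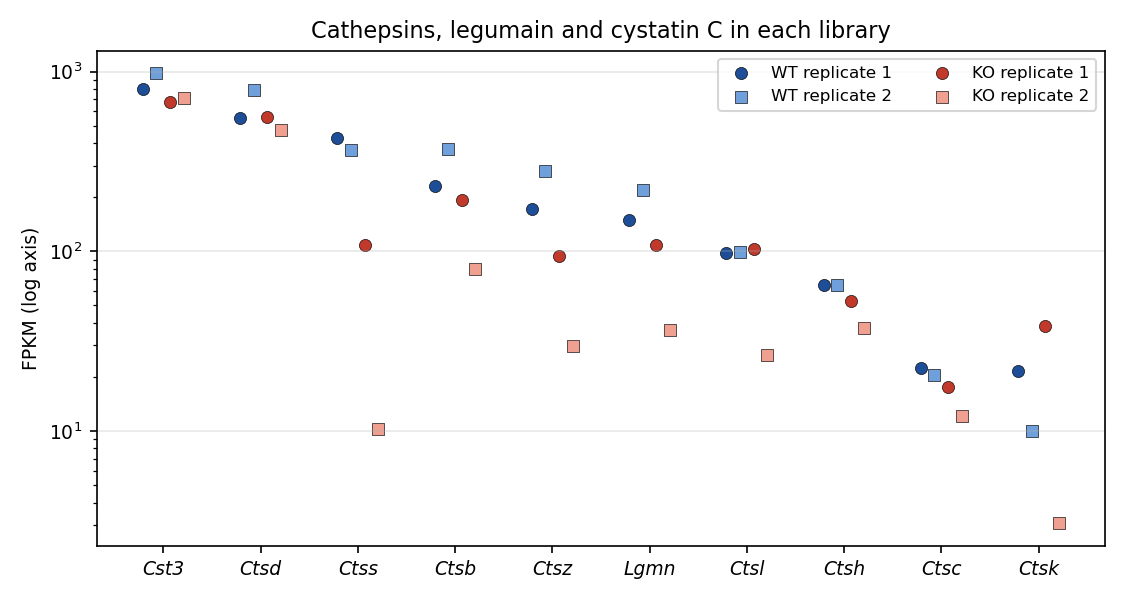
FPKM (log axis) of the 10 genes in each of the 4 libraries, with WT in blue and KO in red, circles for replicate 1 and squares for replicate 2. Ctss spans 10.3 to 429 FPKM and Cst3 only 678 to 979 FPKM, and KO replicate 2 is the lowest library for every gene but Cst3.

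Ctss encodes cathepsin S, which stays active at neutral pH and cleaves the invariant chain of MHC class II in antigen-presenting cells. It had 429 and 367 FPKM in WT libraries and 108 and 10.3 FPKM in KO replicates 1 and 2. Both KO libraries were thus far below both WT libraries, but they differed from each other by 10.4-fold. WT mice averaged 398 ± 43.5 FPKM (SD, n = 2), and the KO mean of 59.1 ± 69.0 FPKM (SD, n = 2) was 14.9% of it. The log2 fold change was -3.50 with a standard error of 1.05 (limma, adjusted p = 0.248). It was -1.87 without KO replicate 2 (adjusted p = 0.0912 by limma) and -5.13 without KO replicate 1. Ctss lies on chromosome 3 of mm9 from 95330708 to 95360327 on the plus strand and has 8 exons.

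Ctsz encodes cathepsin Z (also called X), a carboxypeptidase that removes residues from the C-terminal end of proteins. Its values were 171 and 281 FPKM in WT against 93.7 and 29.8 FPKM in KO libraries. The groups did not overlap, and KO replicate 1 was at an intermediate level. The log2 fold change was -2.03 with a standard error of 0.60 (limma, adjusted p = 0.248), and leaving out KO replicate 2 gave -1.22, leaving out KO replicate 1 -2.84. Exons of Ctsz, on chromosome 2 from 174252995 to 174264540, overlap those of Th1l, which is read from the other strand, and the sources used here do not say if strand was used in counting. None of the 50-base windows of its coding transcripts (0%) occurs in those of another gene.

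Lgmn, the gene for legumain, had 149 and 218 FPKM in WT libraries and 108 and 36.5 FPKM in KO libraries. The KO libraries were lower without overlap, with the larger distance in KO replicate 2. Its log2 fold change of -1.50 with a standard error of 0.56 (limma, adjusted p = 0.282) came to -0.73 without KO replicate 2 and to -2.27 without KO replicate 1. Lgmn lies on chromosome 12 from 103632292 to 103678023 on the minus strand.

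Ctsb encodes cathepsin B, an endopeptidase that also trims dipeptides from the C-terminal end and is abundant in macrophages. Ctsb was measured at 231 and 372 FPKM in WT against 193 and 79.6 FPKM in KO libraries. KO replicate 1 lay just below WT replicate 1, and only KO replicate 2 was well apart. The log2 fold change was -1.23 with a standard error of 0.50 (limma, adjusted p = 0.298), -0.60 without KO replicate 2 and -1.87 without KO replicate 1. Exons of Ctsb, on chromosome 14 from 63741299 to 63764760, overlap those of Fdft1 on the other strand, and 15.4% of the 50-base windows of its coding transcripts also occur there.

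**Figure D2:**
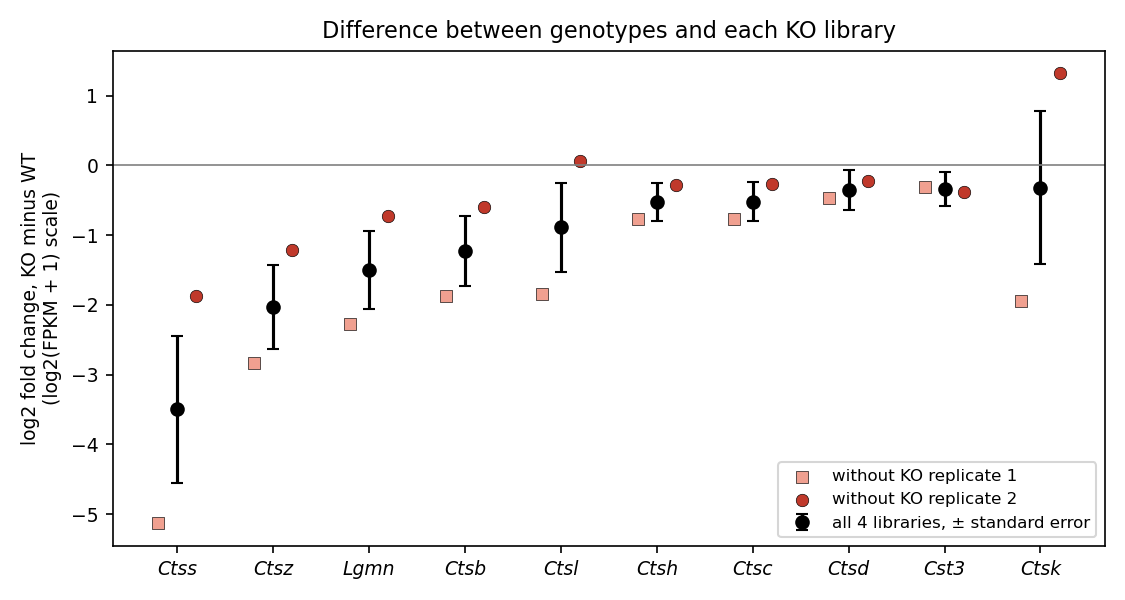
Log2 fold change of each gene (KO minus WT, on the log2(FPKM + 1) scale) with all 4 libraries (black, bars give the standard error), without KO replicate 1 (square) and without KO replicate 2 (circle). Ctss and Ctsz stay below -1 whichever KO library is left out, while Ctsk and Ctsl lie on either side of 0.

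Ctsc and Ctsh had smaller differences, and the groups overlapped for neither. Ctsc encodes dipeptidyl peptidase I, which activates the serine proteases of neutrophil and mast cell granules. Its values were 22.4 and 20.4 FPKM in WT against 17.5 and 12.1 FPKM in KO libraries, which gave a log2 fold change of -0.52 with a standard error of 0.28 (limma, adjusted p = 0.369). Ctsh, the gene for the aminopeptidase cathepsin H, had 64.9 and 64.7 FPKM in WT against 53.0 and 37.5 FPKM in KO libraries. For Ctsh the WT libraries were nearly equal, and the log2 fold change was -0.53 with a standard error of 0.27 (limma, adjusted p = 0.358). Without KO replicate 2 the log2 fold changes of Ctsc and Ctsh were -0.27 and -0.28, and without KO replicate 1 both were -0.77.

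Ctsl encodes cathepsin L, an endopeptidase of many cell types that is needed for normal hair follicle cycling and epidermal turnover in mice. It was at 97.4 and 99.3 FPKM in WT libraries, but at 103 FPKM in one KO library (replicate 1) and 26.6 FPKM in the other. The values other than that of KO replicate 2 were thus close together, and the lower KO mean (64.7 ± 53.9 FPKM, beside 98.4 ± 1.37 FPKM for WT, SD, n = 2) rested on KO replicate 2. The log2 fold change was -0.89 with a standard error of 0.64 (limma, adjusted p = 0.471) and turned to 0.06 without KO replicate 2, against -1.85 when the other KO library was left out. KO replicate 1 was also the library with the high hair follicle markers, and their part in its Ctsl value was not tested.

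Ctsk encodes cathepsin K, the main collagen-degrading cathepsin of osteoclasts, which activated fibroblasts also make. It had 21.6 and 10 FPKM in WT, 38.3 FPKM in KO replicate 1 and 3.07 FPKM in KO replicate 2. The KO libraries held the highest and the lowest value of the 4, 12.5-fold apart, so the groups overlapped completely. The log2 fold change was -0.32 with a standard error of 1.10 (limma, adjusted p = 0.888), and its sign turned with the libraries: it was 1.32 without KO replicate 2, -1.95 without KO replicate 1, 0.20 without WT replicate 1 and -0.84 without WT replicate 2. An estimated 57.4 fragments stood behind the lowest value, for which counting alone gives an SD of about 13%. Ctsk, on chromosome 3 from 95303132 to 95313309, lies 17398 bases upstream of Ctss on the same strand. The coding transcripts of these neighbours share none of their 50-base windows with each other or with another gene.

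The ratio of Ctss to Ctsk does not depend on the scaling of a library. It was 19.9 and 36.6 in WT libraries and 2.82 and 3.36 in KO libraries. Both KO libraries were thus alike in this ratio, although the single levels of the genes differed there by more than 10-fold. The mean log2 ratio was 4.75 in WT and 1.62 in KO mice, a difference of -3.13, which ranged from -3.57 to -2.69 when single libraries were left out. The exact two-sided permutation test gave p = 0.333, the smallest value that 2 against 2 libraries allow. This pair joins the lowest and the highest log2 fold change of the group, and other ratios were less alike between the KO libraries. Ctss to Ctsd was 0.774 and 0.466 in WT and 0.192 and 0.0217 in KO libraries. Ctss to Ctsl was 4.4 and 3.7 in WT and 1.05 and 0.388 in KO libraries. Ctsb to Ctsd was 0.417 and 0.472 in WT and 0.343 and 0.167 in KO libraries.

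Ctsd and Cst3 were the most abundant genes of the group, and their highest library was the least far above their lowest (1.66-fold and 1.44-fold). Ctsd encodes cathepsin D, the main aspartic protease of lysosomes. Its values were 554 and 788 FPKM in WT against 562 and 476 FPKM in KO libraries, so KO replicate 1 lay just above WT replicate 1. The log2 fold change was -0.35 with a standard error of 0.29 (limma, adjusted p = 0.529), and it ranged from -0.61 without WT replicate 1 to -0.10 without WT replicate 2. With median-ratio factors or upper-quartile scaling, the groups no longer overlapped for Ctsd. Ctsd, on chromosome 7 from 149561821 to 149573775, shares 4.86% of its 50-base windows with 6330512M04Rik on the same strand, so a small part of its fragments could have been split between the genes.

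Cst3, on chromosome 2 from 148697458 to 148701248, was the most abundant gene of the group in every library. It had 801 and 979 FPKM in WT against 678 and 716 FPKM in KO libraries. The groups did not overlap, yet the log2 fold change was -0.34 with a standard error of 0.25 (limma, adjusted p = 0.485), and it ranged from -0.49 without WT replicate 1 to -0.20 without WT replicate 2. Cst3 was the only gene of the 10 that was not lowest in KO replicate 2, and the highest library was 1.44-fold above the lowest, against 41.5-fold for Ctss.

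The order of levels differed between the groups below Cst3 and Ctsd, which came first and second in both. In WT mice Ctss followed with 398 FPKM, then Ctsb with 301 ± 99.5, Ctsz with 226 ± 77.4 and Lgmn with 184 ± 49.3 FPKM (SD, n = 2). Neighbours among these 4 genes overlapped in their values. Ctsl and Ctsh were separate from their neighbours, and Ctsc (21.4 ± 1.40 FPKM) and Ctsk (15.8 ± 8.18 FPKM) overlapped at the lower end. In KO mice Ctss came 7th by its mean, and from Ctsb downwards every gene overlapped its neighbour.

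**Figure D3:**
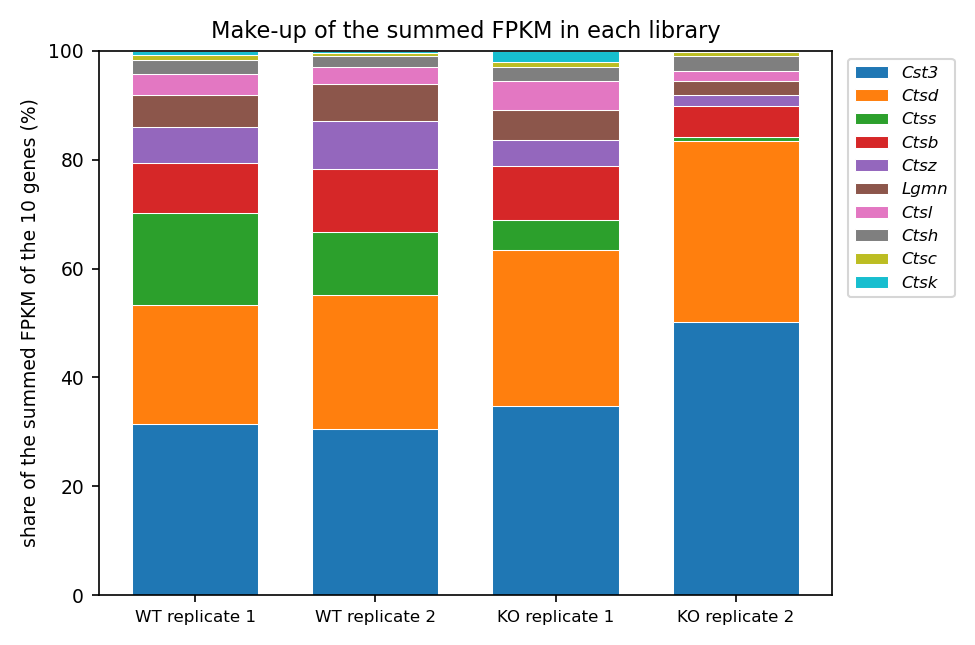
Share (%) of each gene in the summed FPKM of the 10 genes, one stacked bar per library from 0 to 100%. Ctss takes 16.9% and 11.5% in WT and 5.52% and 0.724% in KO libraries, while Cst3 takes 31.5% and 30.6% in WT and 34.7% and 50.2% in KO libraries.

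The sum of the 10 genes was 2540 and 3200 FPKM in WT against 1955 and 1427 FPKM in KO libraries, and its make-up shifted as well. Ctss held 16.9% and 11.5% of the sum in WT and 5.52% and 0.724% in KO libraries. The share of Ctsd was 21.8% and 24.6% in WT and 28.7% and 33.3% in KO libraries. Shares of Ctss, Ctsz and Lgmn were lower and those of Ctsd, Ctsh and Cst3 higher in both KO libraries than in both WT libraries, and the shares of Ctsb, Ctsc, Ctsk and Ctsl overlapped.

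The summed protease transcripts were lower relative to Cst3 in KO than in WT libraries, though not for each gene. The 9 protease genes summed to 2.17 and 2.27 times the FPKM of Cst3 in WT libraries, and to 1.88 and 0.993 times in KO libraries. For the 7 cysteine cathepsins, which cystatin C inhibits, the ratio was 1.30 and 1.24 in WT and 0.893 and 0.278 in KO libraries. The KO libraries were lower without overlap in each ratio, and the exact two-sided permutation test gave its smallest possible p of 0.333. On the log2 scale the ratio of the 9 proteases to Cst3 differed by -0.70, and by -0.24 without KO replicate 2. Taken singly, the log2 ratio to Cst3 separated the groups for Ctsb, Ctss, Ctsz and Lgmn, with differences from -3.23 for Ctss to -0.90 for Ctsb. For Ctsc, Ctsd, Ctsh, Ctsk and Ctsl the groups overlapped, with differences from -0.57 for Ctsl to -0.01 for Ctsd.

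Macrophage markers were lower in both KO libraries, as were the summed cathepsins, while the summed fibroblast and endothelial markers were low in KO replicate 2 alone. The 15 macrophage markers, none at 0 in any library, summed to 2255 and 2367 FPKM in WT and to 928 and 108 FPKM in KO libraries, with 12 of 15 lower in both KO libraries than in both WT libraries (20.5% of all tested genes). The 10 fibroblast markers, also never at 0, summed to 398 and 298 FPKM in WT, 617 FPKM in KO replicate 1 and 63.2 FPKM in KO replicate 2. The 6 endothelial markers, again never at 0, gave 67.6 and 98.1 FPKM in WT, 93.0 FPKM in KO replicate 1 and 7.88 FPKM in KO replicate 2. Of the fibroblast markers Pdpn was lower and Fbln1 higher in both KO libraries than in both WT libraries, and the other 8 and all 6 endothelial markers overlapped. The medians of the macrophage, fibroblast and endothelial lists, -2.60, -0.96 and -1.17 on the log2 scale, came to -1.25, 0.79 and 0.10 without KO replicate 2. The 6 dendritic and Langerhans cell markers, of which Flt3 was too low to be tested, summed to 21.9 and 16.8 FPKM in WT against 12.3 and 4.75 FPKM in KO libraries. The part of these cell types in the cathepsin values was not tested.

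**Figure D4:**
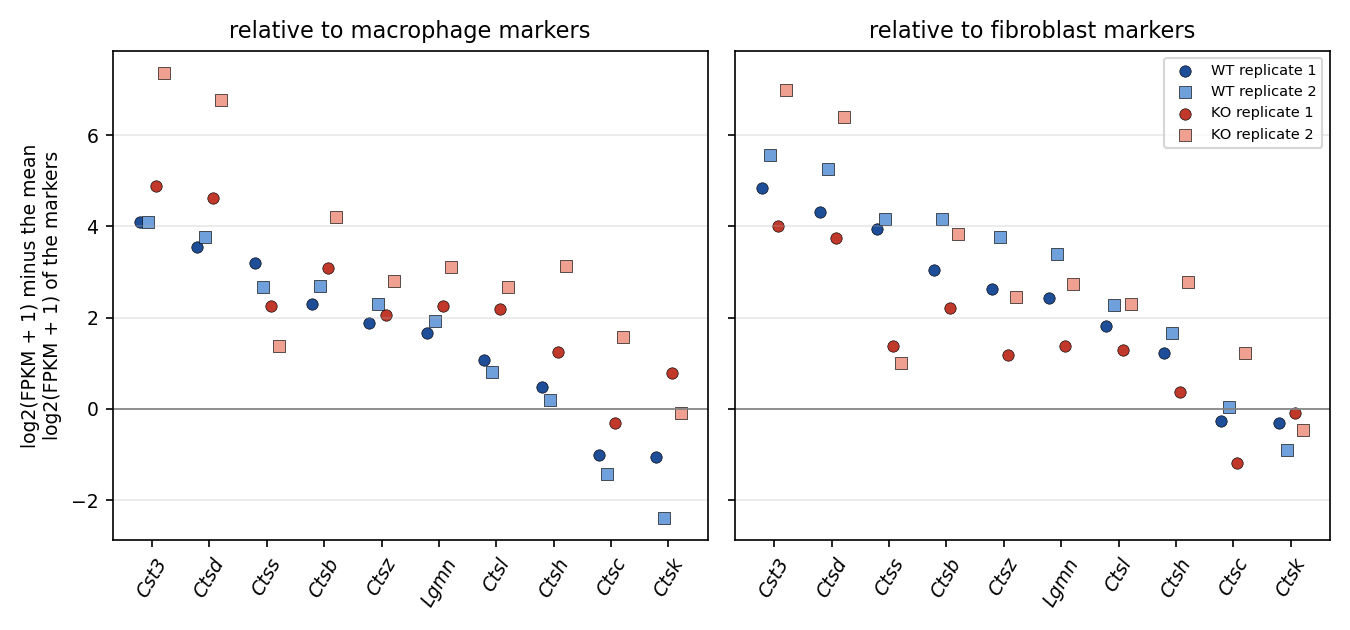
Level of each gene, log2(FPKM + 1), minus the mean log2(FPKM + 1) of the macrophage markers (left) or the fibroblast markers (right) in the same library, with WT in blue and KO in red, circles for replicate 1 and squares for replicate 2. Ctss is lower in both KO libraries in both panels, and Ctsk lies between -0.91 and -0.10 in all 4 libraries in the right panel.

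Measured against the mean log2 level of the macrophage markers in the same library, Ctss stood at 3.19 and 2.67 log2 units in WT and at 2.25 and 1.37 in KO libraries. It was the only gene of the group that was lower in KO than in WT mice on this relative scale. Ctsz stood at 1.87 and 2.29 in WT and at 2.05 and 2.81 in KO libraries and overlapped. The other 8 genes were higher in both KO libraries than in both WT libraries relative to these markers, Ctsd by 2.03 and Cst3 by 2.04 log2 units in the mean. Relative to the fibroblast markers, Ctss and Ctsz were lower in both KO libraries, by 2.86 and 1.38 log2 units in the mean, and the other 8 genes overlapped. Ctsk kept close to the fibroblast markers, at -0.31 and -0.91 in WT and -0.10 and -0.47 in KO libraries. In the exact permutation test, 2 against 2 libraries cannot give these relative levels a p below 0.333.

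Other genes of the lysosome were taken from lists. Of 12 further lysosomal proteases, 10 were tested, 9 had a negative log2 fold change and 0 were called, with a median of -0.27. Napsa, which encodes the aspartic protease napsin A, had 9.76 and 9.16 FPKM in WT against 2.22 and 0.643 FPKM in KO libraries, the lowest log2 fold change among them (-2.18, limma, adjusted p = 0.248). Ctsf, another cysteine cathepsin gene, lay on the other side, with 13.4 and 13.5 FPKM in WT against 20.5 and 21.6 FPKM in KO libraries (log2 fold change 0.61, limma, adjusted p = 0.280). Ctse and Ctsg, the latter a neutrophil granule protease, were too low to be tested.

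Among 6 further cathepsin inhibitors 4 were tested, and 0 were called. Cstb, the cytosolic inhibitor stefin B, had 381 and 284 FPKM in WT against 529 and 586 FPKM in KO libraries, which gave a log2 fold change of 0.76 with a standard error of 0.27 (limma, adjusted p = 0.275). Cst6, the cystatin of the upper epidermis, had 101 and 69.9 FPKM in WT against 165 and 112 FPKM in KO libraries. Both were therefore higher in KO libraries without overlap, 2 of 4 beside 35.3% of all tested genes. Ctla2a and Ctla2b, which resemble cathepsin propeptides, had log2 fold changes of -1.22 and -1.02, and of -0.03 and -0.51 without KO replicate 2. The groups overlapped for Ctla2a, with 19.2 and 28.9 FPKM in WT against 23.1 and 3.59 FPKM in KO libraries. Ctla2b was lower in KO libraries without overlap, with 4.45 and 6.41 FPKM in WT against 3.46 and 1.21 FPKM in KO libraries. This was 1 of 4, beside 20.5% of all tested genes. The 9 keratinocyte markers had a median log2 fold change of 0.82, and their part in the Cst6 value was not tested.

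Lysosomal enzymes for sugars, sulfates and lipids were mostly lower as well. Of 27 such genes tested, 25 had a negative log2 fold change, with a median of -0.66, 16 were lower in both KO libraries than in both WT libraries (20.5% of all tested genes) and 0 were called. Psap, the precursor of the saposins, had 521 and 695 FPKM in WT against 384 and 216 FPKM in KO libraries. The lowest value was that of Gm2a, the GM2 activator (-1.55, and -0.82 without KO replicate 2), and the highest that of Ids, iduronate sulfatase (0.48). Of 17 genes of the lysosome membrane and of sorting to lysosomes, 10 were negative (41.4% of all tested genes) and 7 positive, with a median of -0.14. Laptm5, a lysosomal membrane protein of leukocytes, was the lowest at -2.89 (-1.29 without KO replicate 2), and Lamp2, a major membrane glycoprotein of lysosomes, the highest at 0.30. The regulator Tfeb had 24.6 and 23.8 FPKM in WT against 18.7 and 10.5 FPKM in KO libraries. The 17 proton pump genes, whose products acidify lysosomes, had a median of -0.14, from -0.88 for Tcirg1 to 0.48 for Atp6v1h, with 5 lower and 4 higher in both KO libraries, beside 20.5% and 35.3% of all tested genes. In neither of these last 2 lists was a gene called, and other scalings moved their medians to between -0.26 and -0.24 and their negative members to 12 or 13 of 17. Without KO replicate 2 the medians of the further proteases, further inhibitors, degradative enzymes, membrane genes and pump genes were -0.06, 0.33, -0.31, -0.14 and 0.03, beside 0.11 over all tested genes and -0.33 for the 10 cathepsin group genes.

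Cathepsin S acts on the MHC class II pathway, and the genes of that pathway were lower too. All 8 genes had negative log2 fold changes, with a median of -1.31 (-0.68 without KO replicate 2), KO values lay under WT values without overlap in 8 of 8 (20.5% of all tested genes), and 0 were called. Cd74, the gene for the invariant chain, had 494 and 450 FPKM in WT against 294 and 71.8 FPKM in KO libraries, which gave a log2 fold change of -1.69 with a standard error of 0.67 (limma, adjusted p = 0.294), and of -0.68 without KO replicate 2. Ifi30, the thiol reductase of these compartments, had 99.5 and 122 FPKM in WT against 81.0 and 49.3 FPKM in KO libraries. Ciita, the master regulator of the class II genes, was low throughout, with 1.47 and 1.41 FPKM in WT against 1.12 and 0.553 FPKM in KO libraries, and the KO means of Ciita and Ifi30 were 58.2% and 58.8% of the WT means.

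**Figure D5:**
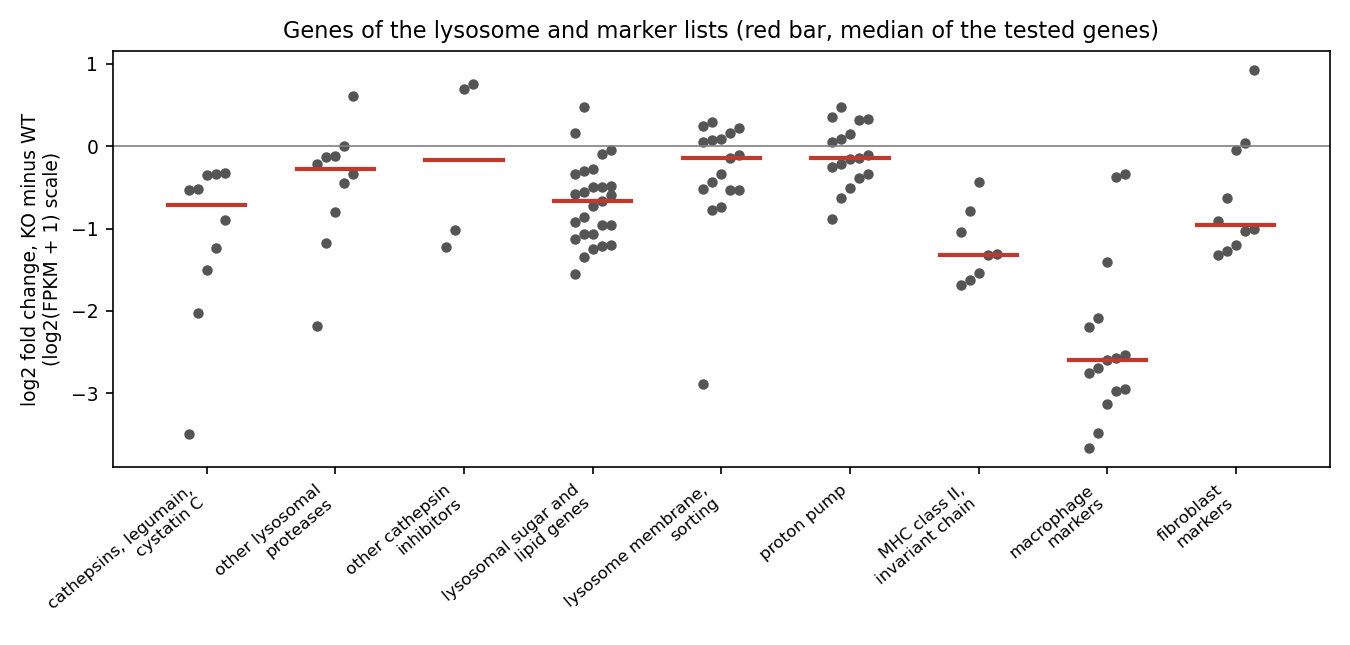
Log2 fold change (KO minus WT, on the log2(FPKM + 1) scale) of every tested gene of the cathepsin group and of 8 lists, one point per gene, with a red bar at the median. The medians run from -2.60 for macrophage markers to -0.14 for the membrane and proton pump lists, and the cathepsin group lies at -0.71.

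The genes with a pattern closest to the median of the 10 were Sptb, Sh3bp5, Speg, Parvb and Tns1. Likeness was the Euclidean distance, on the log2 scale over 4 libraries, between centred values, and it was 0.266 to 0.291 for these 5 among 6052 genes with a mean of at least 10 FPKM. Sptb, for example, had 20.3 and 20 FPKM in WT against 14.9 and 5.32 FPKM in KO libraries. KO replicate 2 was the lowest library for all 5, as it was for 9 of the 10 genes here.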

How the data were processed

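Skin RNA in 2 WT and 2 GSDMD KO libraries was analysed, with groups and replicates taken from the labels. The deposited table, named as counts, holds FPKM values, already scaled by the authors for transcript length and depth: 99.993% of its values above 0 are not whole. The methods describe HISAT2 alignment to mm9 and read counting, and the submitters' processing notes list HISAT2 2.0.1 and StringTie 2.0.6; which program made the FPKM values is not given in the sources used here. Because no counts were held, limma took the place of a count model. Values were set to log2(FPKM + 1) without further scaling, and a filter of 1 FPKM or more in 2 or more libraries left 13027 genes for limma 3.58.1 in R 4.3.3, with genotype as the only term, a mean-variance trend and Benjamini-Hochberg adjustment over all of them. The fit was tested on simulated data. Exact permutation tests used SciPy 1.17.1, two-sided, and cannot go below 0.333 here.

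The table gives no depth. The value of 1 fragment, read from low genes of a single transcript, put it near 17400000, 14200000, 13600000 and 12600000 fragments in WT replicates 1 and 2 and KO replicates 1 and 2. Gene positions follow the table, and exons follow the GENCODE annotation of mm9. The named genes are the 10 members, Gsdmd, the extremes of each gene list and the 5 genes of nearest pattern. Psap, Tfeb, Cst6, Ctla2b and Ifi30 are list genes chosen after their values were seen. The members and lists were chosen with earlier results of these data known. Alternatives were other pseudocounts, scalings and filters, no trend, a replicate block and leaving out each library. A crossed block was added after the data had been seen.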

Additional observations from a re-analysis of the deposited data

How the results depend on the processing

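Under the 8 other settings that kept all 4 libraries (other pseudocounts and scalings, no filter on low values, no trend, and the blocks), all 80 fold changes of the 10 genes kept their direction and stayed outside the threshold. Leaving out single libraries moved more. The called genes then ranged from 0 to 2058 among all genes and from 0 to 6 among the 10. Both upper ends came without KO replicate 1, where the lone KO replicate 2 is assumed to vary like the WT libraries, 15.8% of all tested genes were called, and the 6 were Ctsb, Ctsk, Ctsl, Ctss, Ctsz and Lgmn. Without KO replicate 2, 43 genes (0.33%) and none of the 10 were called. The number past both unadjusted limits (p and fold change) ranged from 0, without WT replicate 2 (1.86% of all tested genes lower and 2.04% higher), to 6, without KO replicate 1 (12.3% lower and 10.8% higher), and was 1, Ctsz, without WT replicate 1 (3.29% and 6.82%). Without KO replicate 2 it was 3, with Ctss and Ctsz lower, Ctsk higher and Lgmn no longer past the limits (2.56% and 5.63%). The median log2 fold change of the 10 ranged from -1.86 to -0.33. Ctsk turned to 0.20 without WT replicate 1 and to 1.32 without KO replicate 2, and Ctsl to 0.06 without KO replicate 2, while without KO replicate 1 they were at -1.95 and -1.85. Same-numbered libraries share only a number: their deviations correlated at -0.20 over 13027 genes, and with the replicate block 4 of the 10 genes passed the unadjusted limits instead of 3. With the crossed pairing it was also 4, beside 5.23% of all tested genes lower and 6.29% higher. With no filter on low values it was 2, without Lgmn, and with median-ratio or upper-quartile scaling it was 4, with Ctsb, beside 5.43% and 5.12% of all tested genes lower. The cause of these shifts was not tested. The read counts were not analysed here, so count models were not run.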
